A study of Mus musculus with 17 samples.

Results

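The proteasome is the barrel-shaped protease that breaks down proteins tagged with ubiquitin, and its subunits are encoded by the genes whose symbol is Psma, Psmb, Psmc, Psmd, Psme or Psmf followed by a number. Chosen by that symbol rule alone, with no use of the measured values, 44 genes were found among the 21452 genes named in the array annotation, with 73 probes between them. They comprised 14 constitutive subunits of the core particle, 17 subunits of the regulatory particle, 5 genes of the immunoproteasome (Psmb8, Psmb9, Psmb10, Psme1 and Psme2) and 8 others. Of the 73 probes 71 passed the filter on dim probes, and all 44 genes kept at least 1 probe. The filter asked for a liver signal well above background on 4 or more of the 17 arrays, whatever the group.

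RNA from the livers of 17 male mice was hybridised to 2-colour expression arrays. The mice, labelled C57BL/6N although the methods give C57BL/6J, had no engineered allele named and formed 4 groups, with 3 months of diet and a single gavage 9 h before the liver was taken. The chow group (n = 4) received a chow diet and maltose, the 1B group (n = 4) chow and 1 binge of ethanol at 5 g/kg, the HFD group (n = 4) a high-fat diet and maltose, and the HFD+1B group (n = 5) a high-fat diet and 1 ethanol binge. The maltose gavage supplied the calories of the ethanol, so each binge group had a gavaged control on the same diet. The design addressed how a fatty diet and a single binge, alone and combined, act on the liver. As models, the groups capture 1 time point after 1 binge in mice of 1 sex, and whole liver was profiled, so that fewer cells of a type and less RNA per cell cannot be told apart.

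In the constitutive core particle, rings of alpha subunits gate the chamber and rings of beta subunits hold the catalytic sites, supplied by Psmb5, Psmb6 and Psmb7. The regulatory particle binds ubiquitinated proteins, removes the ubiquitin and unfolds the substrate with a ring of ATPases encoded by Psmc genes. Interferon gamma induces Psmb8, Psmb9 and Psmb10, which replace the constitutive catalytic subunits in newly built particles and shift the cut peptides towards those that fit MHC class I molecules, while Psme1 and Psme2 form an activator cap. In liver the proteasome handles misfolded and oxidised proteins, and ethanol metabolism is known to alter its activity. RNA levels, which are what the arrays measured, do not give that activity.

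Each value below is a log2 ratio of the mouse's liver RNA (Cy5) over a common reference RNA (Cy3) after loess, from the gene's brightest probe, and a difference is between group means on that scale. Every liver was in the same dye, so a dye effect common to all arrays cancels in the differences. Median liver signals of the arrays were 99 to 138 for chow, 69 to 134 for 1B, 63 to 98 for HFD and 90 to 158 for HFD+1B mice, and the HFD range was the lowest at both ends. The mean log2 liver signal of the proteasome genes, before loess, was 8.78 for HFD mouse 1 and 9.79 for HFD mouse 2. On the other arrays it was 10.08 to 11.15. The part of this dimness in the HFD differences was not tested. The 17 arrays lay on 5 slides scanned on 1 day, with groups spread over the slides. Each of the 8 hepatocyte markers on the array gave a liver signal well above background in 10 or more of the 17 mice. In such counts a spot dropped as an outlier is taken as not above background. The number of arrays limits the precision, and p-values measure only the spread between these mice.

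After loess most proteasome genes were slightly higher in HFD than in chow and slightly lower in HFD+1B than in HFD. Measured against 0, both directions turned when the arrays were centred on their medians instead. In HFD against chow, 4 of the 44 genes rose (Psmb5, Psmb9, Psmd8 and Psmd14) and 0 fell, beside 4.50% of all genes tested that rose and 6.46% that fell, by limma with an adjusted p of 0.05 or less. The median difference of the 44 genes was 0.12, against 0.00041 over all 19355 genes. By class the median was 0.17 for the regulatory particle (-0.039 with median centring and -0.027 with the liver channel alone). It was 0.11 for the constitutive core (-0.13 with median centring), and 0.036 for the immunoproteasome (-0.17 with median centring and -0.024 in the authors' own table of ratios). In the regulatory particle 16 of 17 genes lay above 0, of which 2 passed the test. The direction of the family against 0 depends on how the arrays were scaled. After loess 35 of 44 genes lay above 0, beside 50.1% of all genes. It was 14 of 44 when each array was centred on its median instead, beside 39.1%, and 25 of 44 with the liver channel alone, beside 53.9%. Median centring also moved the median of all genes, to -0.080, and that of the 44 genes was -0.049. The 4 calls became 2 without chow mouse 1, chow mouse 2, chow mouse 4 or HFD mouse 4, and 7 without HFD mouse 1.

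In HFD+1B against HFD, the comparison that adds ethanol to the fatty liver, 7 genes fell (Psma1, Psma5, Psmb2, Psmb9, Psmc2, Psmc3 and Psmc5) and 2 rose (Psmd8 and Psme3), beside 8.39% and 11.0% of all genes. The median was -0.14 for the 44 genes against 0.0079 for all genes after loess, and 0.088 against 0.14 after median centring. Median centring thus turned its sign but left it below the median of all genes. Of the 9 calls 2 were kept after median centring, those of Psmd8 and Psme3, and 0 with the liver channel alone. The number of calls was 2 without HFD mouse 4, 4 without HFD+1B mouse 1, and 5 without HFD mouse 3 or HFD+1B mouse 4. This comparison shares the HFD mice with that of HFD against chow, so the 2 are not independent.

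With both exposures together, in HFD+1B against chow, 2 genes rose (Psmd8 and Psme3) and 2 fell (Psma4 and Psme2), beside 8.90% and 7.40% of all genes. The median over the 44 genes was -0.027. Without chow mouse 2, chow mouse 3 or HFD+1B mouse 5 the 4 calls became 2. Between the 2 groups given ethanol, HFD+1B against 1B, Psmd8 rose and Psma4 fell, beside 6.28% and 5.15% of all genes, and 1 of these calls was left without any one of the 1B mice or without HFD+1B mouse 4 or 5.

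Ethanol in chow-fed mice changed 0 of 44 genes by limma, beside 4.13% of all genes in either direction. At an unadjusted p under 0.05 there were 3, and the methods' unpaired test gave 6 without adjustment and 0 after it. The diet by ethanol interaction, which asks whether ethanol acted differently on the 2 diets, also called 0 of 44, beside 4.39% of all genes, with 6 at an unadjusted p under 0.05. In all, 13 of the 44 genes passed in at least 1 of 6 comparisons, beside 34.1% of all genes. The 31 others ranged from -0.48 (Psmd2, HFD+1B against HFD, limma adjusted p = 0.0711) to 0.53 (Psmd2, HFD against chow, limma adjusted p = 0.0872).

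**Figure D1:**
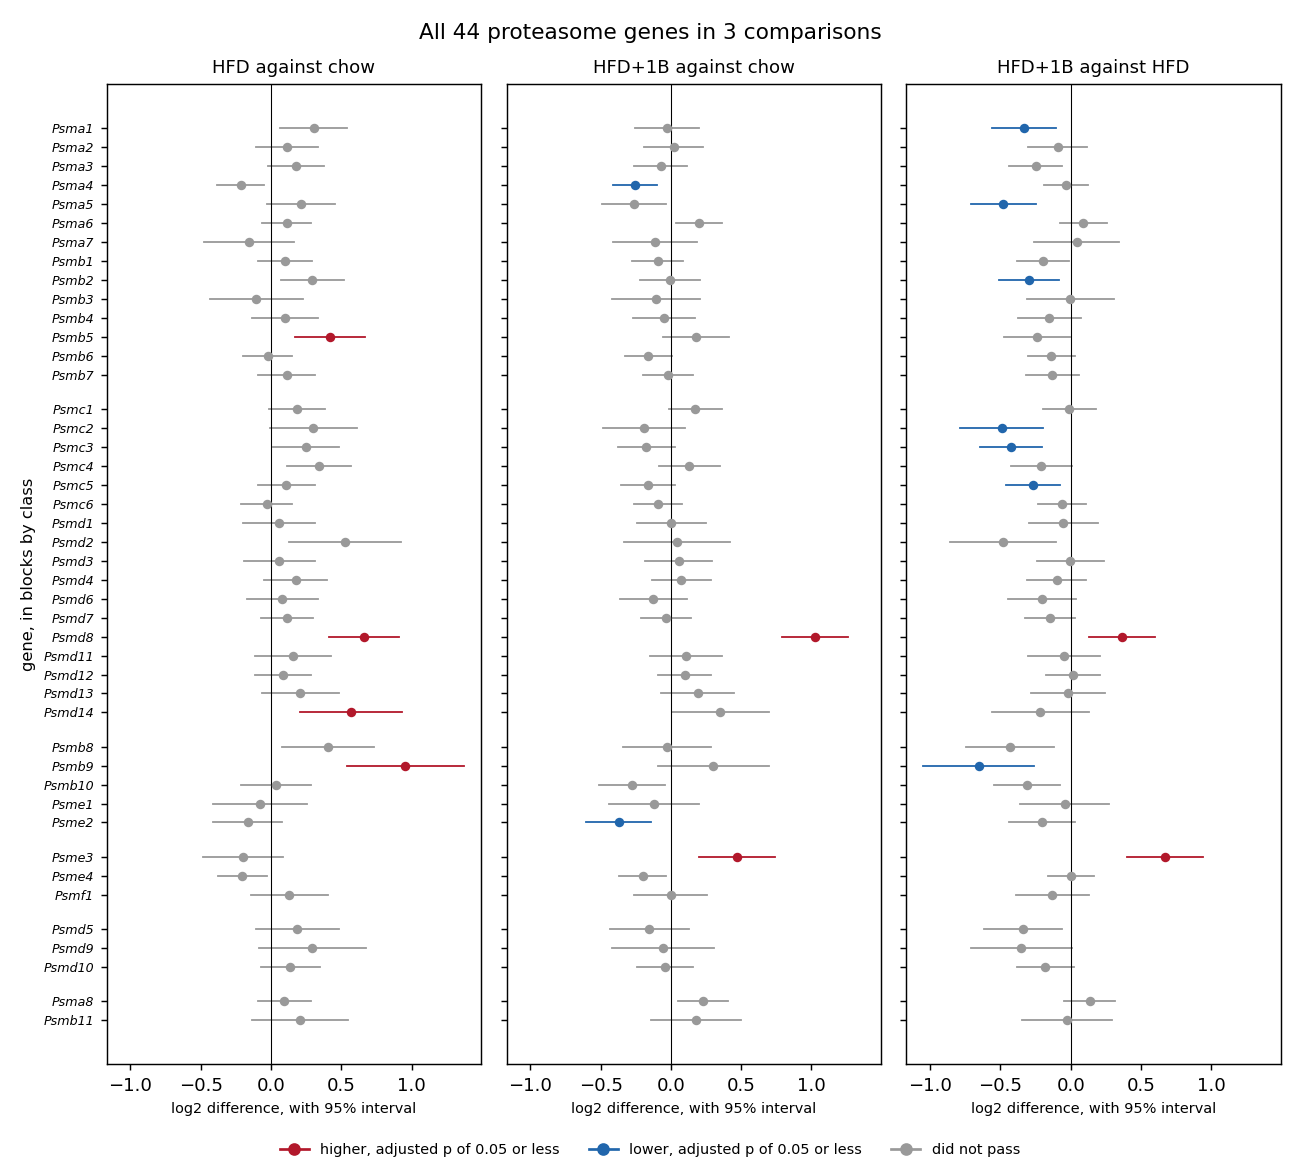
Log2 difference (x axis) of each of the 44 proteasome genes in 3 comparisons, with its 95% interval, in blocks by class on the y axis, with red for higher, blue for lower and grey for genes that did not pass. After loess 35 of 44 points lie above 0 in HFD against chow, beside 50.1% of all genes, and 14 after median centring, beside 39.1%. In HFD+1B against HFD 7 of 44 do, beside 51.3%, and 31 after median centring, beside 67.2%. In the 3 comparisons 4, 4 and 9 genes are coloured.

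Among the immunoproteasome genes, Psmb9 changed most. It encodes the inducible subunit that takes the place of Psmb6. The Psmb9 log2 ratio was -0.97, -0.30, -0.34 and -0.33 in the chow mice and -0.66, -0.46, -0.60 and -0.41 in the 1B mice. It was 0.45, 0.66, -0.12 and 0.88 in the HFD mice and -0.50, -0.073, -0.44, 0.20 and -0.10 in the HFD+1B mice. The HFD mice held the 3 highest values of all, and none of the 4 overlapped chow or 1B. Psmb9 rose by 0.96 (SE 0.20, limma adjusted p = 0.00564) in HFD, a 1.94-fold increase, and within the 3 slides that held both groups it was above chow on each, by 0.21 to 1.43. This call was kept without any single mouse, and lost (limma adjusted p = 0.144) when the liver channel was used alone. Psmb9 differed by -0.65 (SE 0.19, limma adjusted p = 0.0224) between HFD+1B and HFD, lower with ethanol on 4 of 4 slides, though the groups overlapped. Leaving out HFD mouse 2 or 4 or HFD+1B mouse 1 ended the Psmb9 call for HFD+1B against HFD (limma adjusted p = 0.0533 to 0.0914). With median centring that difference was -0.36 and did not pass. Against chow, the HFD+1B difference was 0.30 (SE 0.19, adjusted p = 0.343), and the interaction -0.61 (SE 0.27, adjusted p = 0.221), neither of which passed by limma.

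Psmb8, the inducible partner of Psmb5, had a similar order of groups but smaller steps. Chow mice had Psmb8 log2 ratios of 0.023, 0.097, -0.15 and -0.21, and 1B mice of -0.66, -0.26, -0.37 and 0.069. The HFD mice had 0.18, 0.35, 0.20 and 0.65, and the HFD+1B mice -0.47, 0.13, -0.10, 0.15 and -0.14. Every HFD value lay above every chow value and every HFD+1B value. The difference of 0.41 (SE 0.16, adjusted p = 0.109) in HFD and that of -0.43 (SE 0.15, adjusted p = 0.0513) for HFD+1B against HFD nevertheless missed the limma threshold.

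Psmb10, the inducible partner of Psmb7, gave no call. For Psmb10 the log2 ratios were -0.14, 0.18, 0.073 and 0.20 in chow and -0.33, -0.16, -0.10 and 0.0016 in 1B. The HFD mice gave -0.13, 0.19, -0.026 and 0.42 and the HFD+1B mice -0.30, -0.17, -0.10, -0.13 and -0.29. All 5 HFD+1B values were below 0 and 1 HFD value, 0.42 in mouse 4, stood above the rest. The difference between HFD+1B and HFD was -0.31 (SE 0.11, adjusted p = 0.0591) by limma, just outside the threshold.

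The activator genes behaved differently from Psmb9, with no gain in HFD. Log2 ratios of Psme1 read 0.14, -0.025, 0.18 and 0.041 in chow and -0.24, -0.0054, -0.14 and 0.17 in 1B. Those of the HFD mice were -0.38, 0.0086, 0.074 and 0.33, and those of the HFD+1B mice -0.46, 0.40, -0.077, -0.020 and -0.020. The 4 groups overlapped for Psme1, and nothing passed. The Psme2 log2 ratio was 0.33, 0.035, 0.038 and 0.004 in the chow mice and -0.43, -0.15, -0.18 and -0.15 in the 1B mice. It was -0.21, 0.088, -0.27 and 0.13 in the HFD mice and -0.34, -0.053, -0.44, -0.16 and -0.36 in the HFD+1B mice. All 4 chow values of Psme2 lay above 0, and every value of 1B and of HFD+1B lay below all of them. Psme2 fell by 0.37 (SE 0.11, limma adjusted p = 0.0301) in HFD+1B against chow, and was below chow on 4 of 4 slides. The Psme2 call for HFD+1B against chow was lost without chow mouse 1 or 3 or HFD+1B mouse 1, 3 or 5 (limma adjusted p = 0.0517 to 0.107). In 1B the difference was -0.33 (SE 0.12, adjusted p = 0.165) by limma, which did not pass.

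**Figure D2:**
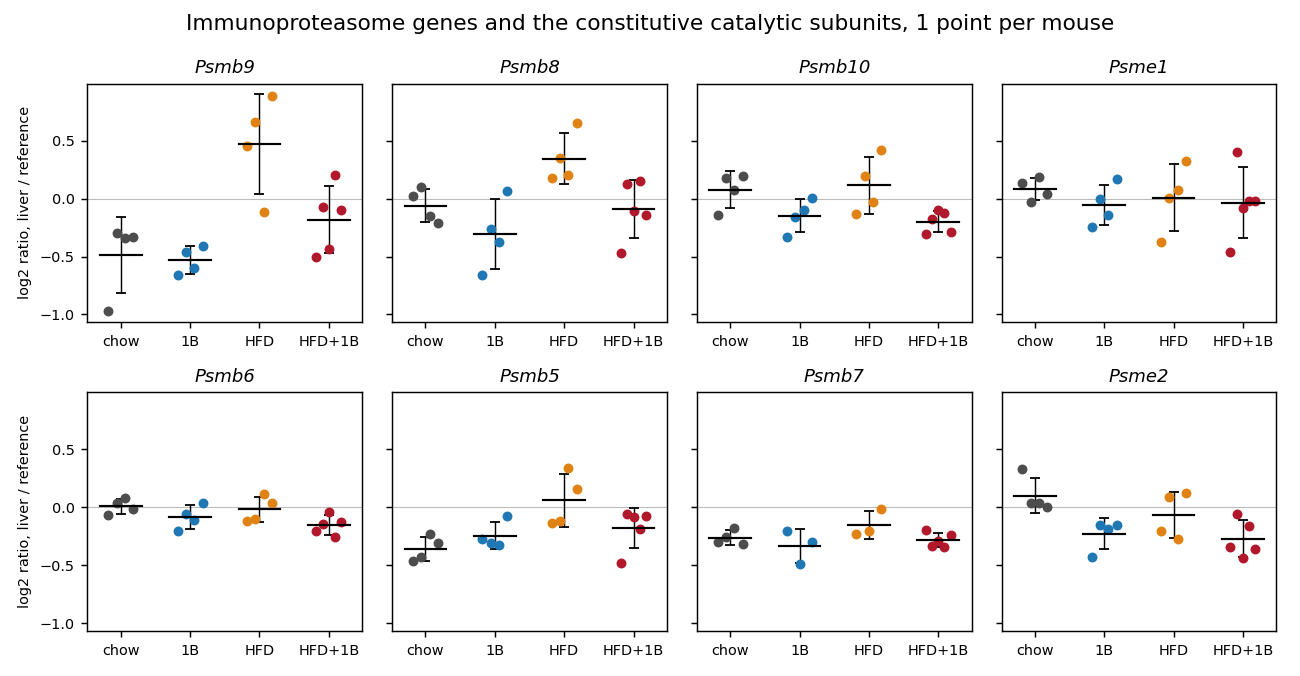
Log2 ratio of liver over reference (y axis) for the 5 immunoproteasome genes and the constitutive catalytic subunits Psmb5, Psmb6 and Psmb7. Each mouse in chow, 1B, HFD and HFD+1B is 1 point, with the group mean and SD as bars. The Psmb9 points of HFD lie from -0.12 to 0.88, all above those of chow and 1B, while the Psme2 points of chow lie above those of 1B and HFD+1B.

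Of the 3 constitutive counterparts Psmb5 alone passed a test. Chow mice had Psmb5 log2 ratios of -0.46, -0.43, -0.23 and -0.31, and 1B mice of -0.27, -0.30, -0.32 and -0.075. The HFD mice had -0.13, -0.11, 0.34 and 0.16, and the HFD+1B mice -0.48, -0.057, -0.084, -0.19 and -0.077. Psmb5, the chymotrypsin-like subunit, was higher in all 4 HFD mice than in all 4 chow mice. It rose by 0.42 (SE 0.12, limma adjusted p = 0.0311) in HFD, with a gain on 3 of 3 slides. Leaving out chow mouse 1, 2 or 4 or HFD mouse 3 or 4 ended the Psmb5 call for HFD against chow (limma adjusted p = 0.0604 to 0.114). With median centring the difference did not pass, at 0.17. For Psmb6 the log2 ratios were -0.068, 0.037, 0.079 and -0.014 in chow and -0.21, -0.056, -0.11 and 0.036 in 1B. The HFD mice gave -0.12, -0.096, 0.11 and 0.038 and the HFD+1B mice -0.20, -0.14, -0.036, -0.26 and -0.13. Psmb6, the caspase-like subunit, stayed within -0.26 and 0.11 over all mice and gave no call. Log2 ratios of Psmb7 read -0.30, -0.26, -0.18 and -0.32 in chow and -0.20, -0.49 and -0.30 in 1B. Those of the HFD mice were -0.23, -0.21 and -0.016, and those of the HFD+1B mice -0.20, -0.34, -0.29, -0.34 and -0.24. Psmb7, the trypsin-like subunit, gave no call either, and its fit used the 15 arrays with a value, since outlier spots on 1 of the 1B and 1 of the HFD arrays were dropped.

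Set against its constitutive partner within the same mouse, Psmb9 stood higher in HFD than in chow. Psmb9 minus Psmb6, relative to the chow mean, was 0.98 ± 0.49 (SD, n = 4) in HFD, with mice from 0.26 to 1.34, and 0.46 ± 0.34 (SD, n = 5) in HFD+1B, from 0.093 to 0.95. With the liver channel alone the HFD+1B mean was 0.15. In 1B it was 0.049 ± 0.035 (SD, n = 4). Psmb8 minus Psmb5 was -0.014 ± 0.29 (SD, n = 4) in HFD, where both genes were higher, and -0.36 ± 0.23 (SD, n = 4) in 1B. Psmb10 minus Psmb7 was -0.028 ± 0.18 (SD, n = 3) in HFD and -0.26 ± 0.15 (SD, n = 5) in HFD+1B. No test was applied to these differences, which compare shifts of 2 probes and not their levels.

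**Figure D3:**
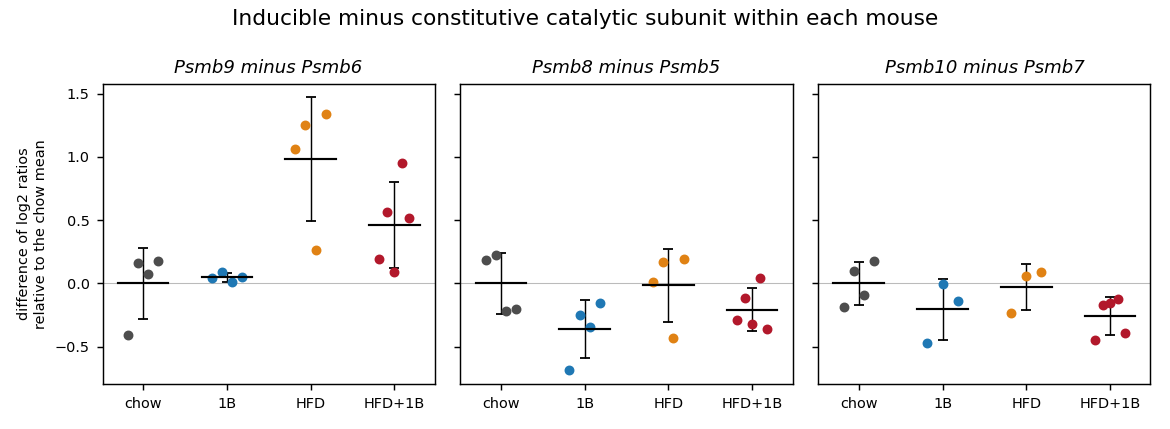
Inducible minus constitutive catalytic subunit within each mouse (y axis, difference of log2 ratios relative to the chow mean) for 3 pairs, 1 point per mouse in the 4 groups, with mean and SD. For Psmb9 minus Psmb6 all 4 HFD points lie above all chow points, whereas in the other pairs HFD overlaps chow.

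Promoters are shown for Psmd8 and Psmb9, the 2 genes with the widest range of group means, and for Psmb8 and its partner Psmb5, because Psmb5 and the inducible genes are known targets of different regulators, the stress factors NFE2L1 and NFE2L2 on the antioxidant response element and the interferon pathway. The 200 bases before the RefSeq start (GRCm38.p6, strand of the gene, 5′ to 3′) are printed with the matches found in capitals.
Psmb5, chr14:54617996-54618195, minus strand: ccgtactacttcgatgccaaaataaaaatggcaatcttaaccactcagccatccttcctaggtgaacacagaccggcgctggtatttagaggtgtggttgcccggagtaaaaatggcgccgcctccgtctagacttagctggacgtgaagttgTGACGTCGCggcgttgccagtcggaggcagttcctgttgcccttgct
Psmb8, chr17:34197995-34198194, plus strand: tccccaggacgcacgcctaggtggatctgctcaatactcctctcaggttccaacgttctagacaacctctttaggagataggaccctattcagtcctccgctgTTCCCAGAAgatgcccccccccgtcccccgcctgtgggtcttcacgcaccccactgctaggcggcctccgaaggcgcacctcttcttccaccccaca
Psmb9, chr17:34187331-34187530, minus strand: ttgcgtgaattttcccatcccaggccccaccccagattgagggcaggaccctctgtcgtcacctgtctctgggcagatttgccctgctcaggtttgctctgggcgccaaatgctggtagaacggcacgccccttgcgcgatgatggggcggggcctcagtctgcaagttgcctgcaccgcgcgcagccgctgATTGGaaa
Psmd8, chr7:29180674-29180873, minus strand: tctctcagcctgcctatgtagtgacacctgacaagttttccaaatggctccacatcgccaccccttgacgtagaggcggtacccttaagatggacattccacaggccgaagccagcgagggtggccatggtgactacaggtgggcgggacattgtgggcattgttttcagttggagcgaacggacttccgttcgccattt
The capitals mark TGACGTCGC in Psmb5, a match to the antioxidant response element searched as TGACNNNGC or TGAGNNNGC. They mark TTCCCAGAA in Psmb8, a match to the STAT element TTCNNNGAA, and a CCAAT box on the opposite strand in Psmb9. Psmd8 had no match. Both strands of 250 bases before each start were searched, and the elements do not share a core, but 2 matches may overlap in a promoter.

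Of the 44 genes, 37 had a promoter in the table. The antioxidant response element was found in 11 of 37 (29.7%), beside 25.7% of all 27025 genes. CCAAT was found in 14 (37.8%) beside 37.5%, and the interferon regulatory factor element GAAANNGAA in 3 (8.11%) beside 8.18%, namely Psmb3, Psmd4 and Psmd9. The STAT element was found in 1 gene (2.7%), Psmb8, beside 8.13%. A match describes the letters of this window only. Psmb9 and Tap1, which encodes a subunit of the MHC class I peptide transporter, start 226 bases apart on opposite strands. The 250 bases searched before 1 start therefore reach past the other.

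Among the other constitutive core genes, Psma4, Psma1, Psma5 and Psmb2 passed in a comparison that involves HFD+1B. The Psma4 log2 ratio was -0.22, -0.046, -0.12 and -0.034 in the chow mice and -0.10, -0.12, -0.14 and -0.062 in the 1B mice. It was -0.28, -0.46, -0.25 and -0.30 in the HFD mice and -0.31, -0.30, -0.30, -0.46 and -0.43 in the HFD+1B mice. On its brightest probe Psma4, an alpha ring subunit, was lower in every HFD and HFD+1B mouse than in every chow and 1B mouse. It fell by 0.25 (SE 0.074, limma adjusted p = 0.027) in HFD+1B against chow and by a like amount against 1B, -0.25 (SE 0.074, adjusted p = 0.0376), by limma. The HFD difference of -0.22 (SE 0.078, adjusted p = 0.0876) did not pass by limma. A further probe of Psma4 gave 0.015 (SE 0.091, adjusted p = 0.941) in HFD against chow by limma. In HFD+1B that probe gave -0.24 (SE 0.091, adjusted p = 0.0971) against chow and -0.33 (SE 0.091, adjusted p = 0.0299) against 1B by limma. The Psma4 call for HFD+1B against chow was lost without chow mouse 2, 3 or 4 or HFD+1B mouse 4 or 5 (limma adjusted p = 0.0563 to 0.088). Leaving out 1B mouse 1, 2, 3 or 4 or HFD+1B mouse 4 or 5 ended the Psma4 call for HFD+1B against 1B (limma adjusted p = 0.0704 to 0.0955). Both Psma4 calls were also lost in the authors' table, without background subtraction, with median centring, with the liver channel alone and with replicate number as a block. Chow mice had Psma1 log2 ratios of -0.24, 0.085, 0.099 and 0.024, and 1B mice of -0.14, -0.15, -0.33 and -0.17. The HFD mice had 0.036, 0.27, 0.51 and 0.37, and the HFD+1B mice -0.20, -0.034, 0.0078, -0.15 and 0.21. Psma1, also of the alpha ring, was highest in HFD as a group, and its HFD+1B mean was lower by 0.33 (SE 0.11, limma adjusted p = 0.0414) than the HFD mean. The Psma1 call for HFD+1B against HFD was lost without chow mouse 4, HFD mouse 2, 3 or 4 or HFD+1B mouse 1, 2, 3 or 4 (limma adjusted p = 0.0522 to 0.143).

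For Psma5 the log2 ratios were -0.15, 0.059, 0.33 and 0.20 in chow and -0.18, 0.041, -0.27 and 0.0083 in 1B. The HFD mice gave 0.089, 0.29, 0.45 and 0.47 and the HFD+1B mice -0.19, -0.12, -0.037, -0.12 and -0.30. Psma5, an alpha subunit chosen for display after its values were seen, did not overlap between HFD and HFD+1B. It fell by 0.48 (SE 0.11, limma adjusted p = 0.00575) and was lower on 4 of 4 slides, and the call was kept without any single mouse but lost with median centring or the liver channel alone. Log2 ratios of Psmb2 read 0.097, 0.063, 0.12 and 0.0039 in chow and 0.030, 0.33, 0.012 and 0.34 in 1B. Those of the HFD mice were 0.46, 0.15, 0.58 and 0.27, and those of the HFD+1B mice 0.090, 0.13, 0.091, -0.13 and 0.14. Psmb2, a non-catalytic beta subunit, fell by 0.30 (SE 0.10, limma adjusted p = 0.0493) in HFD+1B against HFD, a call lost with the slide as a block. Leaving out chow mouse 1, 2, 3 or 4, 1B mouse 2, HFD mouse 1, 3 or 4 or HFD+1B mouse 1, 2, 3 or 4 ended the Psmb2 call for HFD+1B against HFD (limma adjusted p = 0.0506 to 0.171). The Psmb1 log2 ratio was -0.36, -0.049, -0.086 and -0.18 in the chow mice and -0.21, -0.17, -0.27 and -0.18 in the 1B mice. It was -0.22, -0.033, -0.083 and 0.059 in the HFD mice and -0.38, -0.25, -0.17, -0.38 and -0.14 in the HFD+1B mice. For Psmb1, also non-catalytic, the groups overlapped and nothing passed.

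In the regulatory particle, Psmd8 stood apart. It encodes a non-ATPase subunit of the lid. Chow mice had Psmd8 log2 ratios of -0.79, -0.78, -0.61 and -0.65, and 1B mice of -0.35, -0.53, -0.53 and -0.34. The HFD mice had -0.20, -0.20, 0.29 and -0.066, and the HFD+1B mice 0.025, 0.50, 0.28, 0.36 and 0.42. The group means were in the order chow, 1B, HFD and HFD+1B, with no overlap between chow and any other group, or between 1B and HFD. Psmd8 rose by 1.03 (SE 0.11, limma adjusted p = 8.25e-06) in HFD+1B against chow, a 2.04-fold difference that was above 0 on 4 of 4 slides (0.82 to 1.21) and kept under all 29 alternatives. It also rose by 0.66 (SE 0.12, limma adjusted p = 0.0022) in HFD against chow (0.45 and not passing with median centring) and by 0.75 (SE 0.11, limma adjusted p = 0.000357) in HFD+1B against 1B. The step from HFD to HFD+1B, 0.36 (SE 0.11, adjusted p = 0.0322) by limma, held values that overlapped. The Psmd8 call for HFD+1B against HFD was lost without HFD mouse 1, 2 or 4 or HFD+1B mouse 2, 4 or 5 (limma adjusted p = 0.0568 to 0.0939). That from chow to 1B, 0.27 (SE 0.12, adjusted p = 0.298) by limma, did not pass although the values did not overlap. The interaction was 0.092 (SE 0.16, adjusted p = 0.81) by limma.

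For Psmd14 the log2 ratios were -0.53, -0.35, -0.23 and -0.31 in chow and -0.46, -0.33, -0.54 and -0.32 in 1B. The HFD mice gave -0.13, -0.18, 0.22 and 0.94 and the HFD+1B mice 0.064, 0.12, -0.051, -0.12 and -0.022. Psmd14, the deubiquitinase of the lid, rose by 0.57 (SE 0.17, limma adjusted p = 0.0457) in HFD, where mouse 4 at 0.94 was far above the other 3. Leaving out chow mouse 1, 2, 3 or 4, 1B mouse 1, 2, 3 or 4, HFD mouse 3 or 4 or HFD+1B mouse 2, 3 or 5 ended the Psmd14 call for HFD against chow (limma adjusted p = 0.0519 to 0.122). It was lost with the slide as a block too. A dimmer probe of Psmd14 went the opposite way, with a difference of -1.08 (SE 0.145, limma adjusted p = 0.000269) in HFD against chow. It gave 0.88 (SE 0.137, limma adjusted p = 0.000432) in HFD+1B against HFD. That probe also passed in the interaction, at 1.02 (SE 0.199, limma adjusted p = 0.0119), where the brightest probe did not. The mean of both probes in HFD was -0.26. The direction of Psmd14 is therefore not settled by these arrays.

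None of the 6 ATPase genes passed the test against chow in any group. Log2 ratios of Psmc4 read -0.37, -0.21, -0.29 and -0.26 in chow and -0.094, -0.085, -0.15 and 0.10 in 1B. Those of the HFD mice were -0.10, -0.020, 0.32 and 0.040, and those of the HFD+1B mice -0.22, -0.22, -0.011, -0.37 and 0.069. Psmc4 was higher in every HFD mouse than in every chow mouse, by 0.34 (SE 0.11, adjusted p = 0.0542) on average, just outside the limma threshold. The Psmc3 log2 ratio was -0.22, -0.12, -0.11 and -0.25 in the chow mice and -0.17, -0.32, -0.17 and 0.017 in the 1B mice. It was -0.11, 0.14 and 0.19 in the HFD mice and -0.50, -0.33, -0.38, -0.43 and -0.12 in the HFD+1B mice. Psmc3 in HFD+1B lay below all HFD values, and it fell by 0.42 (SE 0.11, limma adjusted p = 0.0106), with 1 HFD array left out of its fit for an outlier spot. The Psmc3 call for HFD+1B against HFD was lost without HFD mouse 4 (limma adjusted p = 0.061). The ATPases Psmc2 and Psmc5 also passed in that comparison, with differences of -0.49 (SE 0.14, adjusted p = 0.0214) and -0.27 (SE 0.091, adjusted p = 0.0492) by limma. Leaving out HFD mouse 3 or 4 or HFD+1B mouse 1 or 4 ended the Psmc2 call for HFD+1B against HFD (limma adjusted p = 0.053 to 0.0839). That call was also lost in the authors' table and with the mean of all probes of the gene. A dim probe of Psmc2 went the opposite way there, at 0.27 (SE 0.107, adjusted p = 0.0892) by limma. The Psmc5 call for HFD+1B against HFD was lost without chow mouse 1, 2 or 4, 1B mouse 1 or 2, HFD mouse 1, 3 or 4 or HFD+1B mouse 1, 2, 3, 4 or 5 (limma adjusted p = 0.0528 to 0.147). With the slide as a block the Psmc5 call was lost as well. Both were counted here because they passed and were not chosen by the rule for named genes.

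Outside the particles, Psme3 rose with ethanol in the fatty liver. It encodes a nuclear activator that caps the core without need of ubiquitin. Chow mice had Psme3 log2 ratios of -0.56, -0.41, -0.17 and -0.21, and 1B mice of 0.072, -0.18, 0.10 and -0.016. The HFD mice had -0.71, -0.51, -0.19 and -0.72, and the HFD+1B mice 0.047, -0.019, -0.011, 0.20 and 0.46. All 5 HFD+1B values lay above all chow and all HFD values. Psme3 rose by 0.67 (SE 0.13, limma adjusted p = 0.00174) in HFD+1B against HFD and by 0.47 (SE 0.13, limma adjusted p = 0.0171) against chow, and was higher on 4 of 4 slides in both. The first call was kept without any single mouse, and the second was not. Leaving out chow mouse 1 or 2 ended the Psme3 call for HFD+1B against chow (limma adjusted p = 0.0502 to 0.0639). In 1B, where 3 of 4 values lay above all chow values, the difference was 0.33 (SE 0.13, adjusted p = 0.243) by limma, and the interaction was 0.34 (SE 0.18, adjusted p = 0.324).

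**Figure D4:**
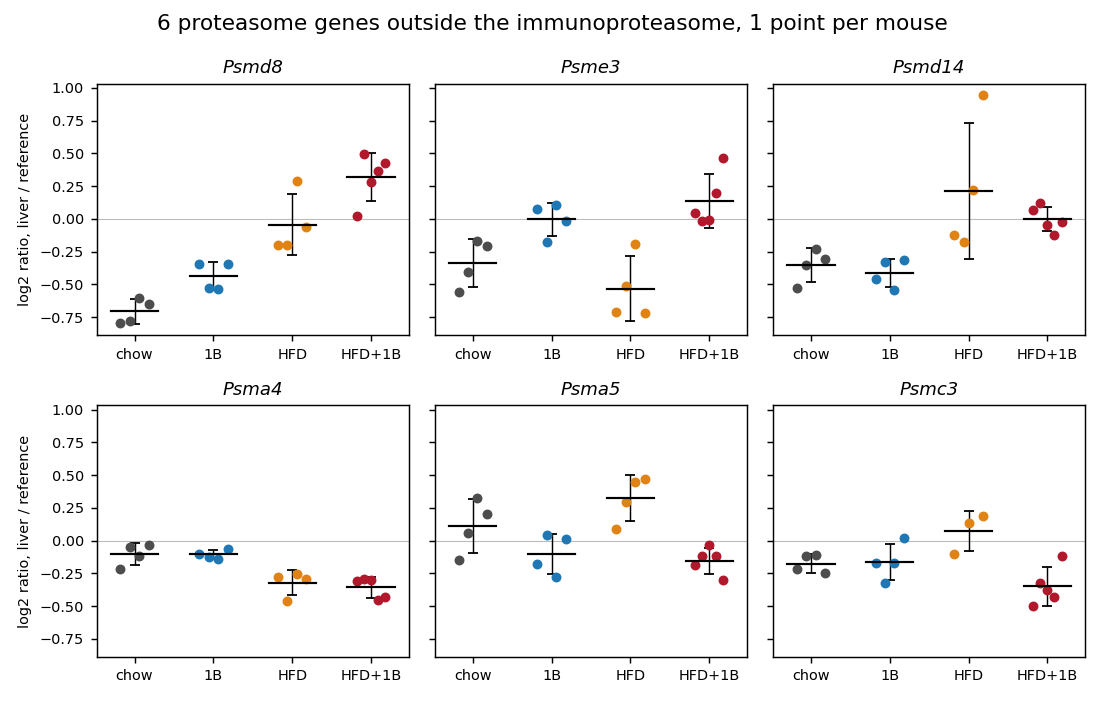
Log2 ratio of liver over reference (y axis) for Psmd8, Psme3, Psmd14, Psma4, Psma5 and Psmc3, 1 point per mouse in the 4 groups, with mean and SD as bars. The means of Psmd8 run from -0.71 in chow to 0.32 in HFD+1B, Psme3 is high in 1B and HFD+1B, and 1 HFD mouse at 0.94 lifts the HFD mean of Psmd14.

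The remaining members gave no call. For Psme4 the log2 ratios were -0.15, 0.097, -0.016 and 0.058 in chow and -0.12, 0.041, 0.0084 and -0.027 in 1B. The HFD mice gave -0.31, -0.29, -0.061 and -0.17 and the HFD+1B mice -0.26, -0.20, -0.17, -0.27 and -0.13. Psme4, which encodes the large activator of the nucleus, had HFD and HFD+1B means below chow by 0.20 (SE 0.083, limma adjusted p = 0.129) and 0.20 (SE 0.079, limma adjusted p = 0.0995), neither of which passed. Log2 ratios of Psmd9 read -0.36, -0.28, -0.27 and -0.23 in chow and -0.27, -0.42, -0.17 and 0.22 in 1B. Those of the HFD mice were -0.33, -0.15, 0.29 and 0.22, and those of the HFD+1B mice -0.84, -0.23, -0.15, -0.56 and 0.063. Psmd9, a chaperone that helps to build the base of the regulatory particle, gave no call. The Psmd10 log2 ratio was 0.044, -0.0014, -0.034 and -0.17 in the chow mice and 0.011, -0.048, -0.31 and -0.070 in the 1B mice. It was 0.23, 0.027, -0.073 and 0.20 in the HFD mice and -0.21, 0.079, -0.0083, -0.22 and -0.064 in the HFD+1B mice. Psmd10, a chaperone of the same step also known as gankyrin, gave none either. Chow mice had Psma8 log2 ratios of -0.13, -0.068, -0.19 and 0.048, and 1B mice of -0.037, 0.013, -0.032 and 0.12. The HFD mice had -0.044, 0.13, 0.014 and -0.058, and the HFD+1B mice 0.23, -0.049, 0.094, 0.33 and 0.12. Psma8, an alpha subunit of the testis, was among the dimmest members, with a mean log2 liver signal of 6.28, and was not well above background on 1 chow and 1 HFD array. For Psmb11 the log2 ratios were 0.017, 0.55, 0.21 and -0.073 in chow and 0.40, 0.58, 0.056 and 0.13 in 1B. The HFD mice gave 0.59, 0.54, 0.078 and 0.31 and the HFD+1B mice 0.66, 0.49, 0.27, 0.041 and 0.32. Psmb11, the thymus subunit, was similarly dim (mean log2 liver signal 6.67), and neither gene passed a test. Psmd5, a chaperone, and Psmf1, a regulator of the core, gave no call either.

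Looking at all members by group, HFD had the highest mean of the 4 groups for 30 of 44 genes (68.2%), beside 27.9% of all genes, after loess. The number was 25 to 33 when each HFD mouse was left out in turn. It was 28 in the authors' own table of ratios, 17 of 44 with the liver channel alone (34.2% of all genes) and 8 of 44 with median centring (18.2%), so this order of groups turns on the scaling. Median centring also moved the median of all genes to -0.080 in HFD against chow, to 0.14 in HFD+1B against HFD and to 0.15 in the interaction. Averaged over its genes in each mouse, relative to the chow mean, the regulatory particle was 0.23 ± 0.15 (SD, n = 4) in HFD, with mice from 0.077 to 0.36. The constitutive core was 0.11 ± 0.11 (SD, n = 4) and the immunoproteasome 0.23 ± 0.24 (SD, n = 4). In HFD+1B the corresponding values were 0.087 ± 0.10 (SD, n = 5), -0.054 ± 0.080 (SD, n = 5) and -0.099 ± 0.19 (SD, n = 5). In 1B they were 0.036 ± 0.093 (SD, n = 4), -0.035 ± 0.10 (SD, n = 4) and -0.20 ± 0.17 (SD, n = 4). The immunoproteasome mean in HFD includes Psmb9, at 0.96 above chow, whereas Psme1 and Psme2 lay below chow. The median of the 5 immunoproteasome genes was -0.21, 0.12, -0.0099 and 0.34 in the HFD mice.

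**Figure D5:**
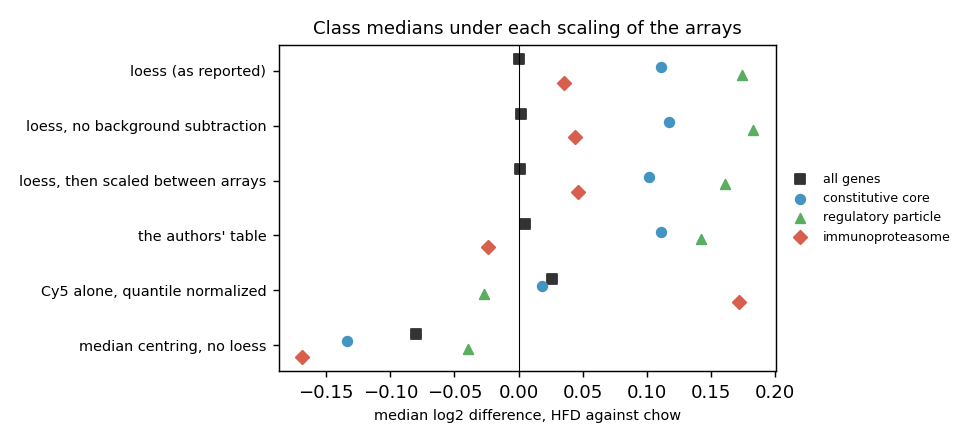
Median log2 difference in HFD against chow (x axis) of all genes and of each of 3 proteasome classes, 1 marker per set, under 6 ways of scaling the arrays (y axis). The core and regulatory medians in HFD are 0.11 and 0.17 after loess and -0.13 and -0.039 after median centring.

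The subunit genes varied little among mice. For the 42 members other than the tissue-specific Psma8 and Psmb11, the median spread within groups was 0.16 (residual SD, log2), beside 0.20 over all genes and 0.23 over the 6834 genes as bright as these. The range between the highest and lowest group mean had a median of 0.23 for the 42 genes, beside 0.33 and 0.42. It was smallest for Psmb3 (0.11) and largest for Psmd8 (1.03), Psmb9 (1.00), Psme3 (0.67) and Psmb8 (0.65).

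The dedicated chaperones of proteasome assembly had a median difference of -0.42 in HFD+1B against chow after loess, and one below 0 under all the other scalings too (-0.33 with median centring). Of the 5 genes on the array (Psmg1 to Psmg4 and Pomp), 3 fell in HFD+1B against chow, beside 7.40% of all genes, led by Psmg3 at -0.70 (SE 0.12, adjusted p = 0.000731) and Psmg1 at -0.65 (SE 0.16, adjusted p = 0.0088) by limma. The 3 that fell in HFD+1B against HFD, beside 8.39% of all genes, were led by Psmg2 at -0.75 (SE 0.13, adjusted p = 0.00104) and Psmg3 at -0.66 (SE 0.12, adjusted p = 0.00168) by limma. Psmg4 rose in HFD, by 0.45 (SE 0.12, adjusted p = 0.0267) by limma. Psmg2 also passed in the interaction, at -0.71 (SE 0.19, adjusted p = 0.0453) by limma. The mean over the 5 genes, relative to chow, was -0.32 ± 0.17 (SD, n = 5 mice) in HFD+1B and 0.15 ± 0.12 (SD, n = 4) in HFD, where median centring turned the median of the 5 from 0.12 to -0.17.

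Of 5 further regulatory particle genes outside the symbol rule, 0 passed in any of 6 comparisons by limma, with 3 at an unadjusted p under 0.05 summed over the comparisons. Among 19 regulators of the proteasome and its substrates, 1 rose and 2 fell in HFD, near the 4.50% and 6.46% of all genes. Nfe2l2, the oxidative stress factor, rose by 0.58 (SE 0.13, adjusted p = 0.00757), and Ddi2, the protease that activates NFE2L1, changed by -0.51 (SE 0.14, adjusted p = 0.0255), by limma. In HFD+1B against chow 2 rose and 2 fell, beside 8.90% and 7.40% of all genes, led by Zfand2a, a stress protein that binds the proteasome, at 0.73 (SE 0.21, adjusted p = 0.024) and Rad23b, a shuttle of ubiquitinated proteins, at -0.52 (SE 0.17, adjusted p = 0.0477) by limma. From HFD to HFD+1B 1 rose and 3 fell, beside 11.0% and 8.39% of all genes, and in the interaction Ubqln4, also a shuttle, was called at -0.66 (SE 0.15, adjusted p = 0.0229) by limma.

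The genes that trim, carry and present the peptides moved in both directions. Of 14 MHC class I presentation genes 1 rose and 2 fell in HFD, and the 2 called genes with the largest differences, the transporter subunit Tap2 at -0.65 (SE 0.17, adjusted p = 0.0234) and the peptide trimmer Erap1 at -0.57 (SE 0.11, adjusted p = 0.00434) by limma, were lower. All genes gave 4.50% and 6.46% there. Against chow, 3 rose and 2 fell in HFD+1B, beside 8.90% and 7.40% of all genes. Tap1, the neighbour of Psmb9, was 0.63 (SE 0.21, adjusted p = 0.0629) in HFD, which did not pass, and 0.65 (SE 0.20, adjusted p = 0.0328) in HFD+1B by limma. Of 17 genes of the interferon gamma axis 3 rose in HFD and 0 fell, beside 4.50% and 6.46% of all genes, led by the chemokine Cxcl9 at 1.09 (SE 0.27, adjusted p = 0.0154) and the GTPase Gbp3 at 0.84 (SE 0.22, adjusted p = 0.0239) by limma. Between HFD+1B and HFD 2 rose and 2 fell, beside 11.0% and 8.39% of all genes. Among them was the chemokine Cxcl10 at -0.77 (SE 0.17, adjusted p = 0.00523) by limma, whose probe was well above background on 4 of 4 HFD and 3 of 5 HFD+1B arrays and on 10 of 17 in all. The mean of the 17, relative to chow, was 0.33 ± 0.13 (SD, n = 4) in HFD, 0.19 ± 0.13 (SD, n = 5) in HFD+1B and -0.070 ± 0.092 (SD, n = 4) in 1B.

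Leukocytes express the immunoproteasome constitutively. Of 20 leukocyte markers 12 lay above 0 in HFD against chow and 4 rose, led by the macrophage genes Cd68 at 1.28 (SE 0.21, adjusted p = 0.0012) and Lyz2 at 0.97 (SE 0.27, adjusted p = 0.0275) by limma, and 0 fell, beside 4.50% and 6.46% of all genes. The summed log2 ratio of the 20 markers, relative to the chow mean, ranged from -3.90 to 3.46 over the chow mice and from -2.37 to 1.65 over the 1B mice. It ranged from 1.31 to 5.28 over the HFD mice and from 4.29 to 6.69 over the HFD+1B mice. A marker without a value in a mouse was left out of that mouse's sum. In HFD+1B against chow 3 markers rose and 1 fell by limma, beside 8.90% and 7.40% of all genes. Against HFD 4 rose and 1 fell, beside 11.0% and 8.39%. With median centring the median marker turned from 0.12 to -0.079 in HFD against chow and remained above 0 in HFD+1B, at 0.22. No marker was at background throughout, but S100a8, a neutrophil gene, was well above background on 12 of 17 arrays and on 0 of 4 chow arrays. Of 8 hepatocyte markers 1 fell in HFD, Apob at -2.77 (SE 0.50, adjusted p = 0.00277) by limma, beside 6.46% of all genes, and the median difference of the 8 from chow was -0.29 in HFD and -0.25 in HFD+1B. The part of these shifts in the immunoproteasome values was not tested.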

How the data were processed

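Liver RNA of 17 mice was labelled with Cy5 and a common reference RNA with Cy3, which the labels call both assorted mouse RNA and liver, with no dye swap, on Agilent 44K arrays. The deposited intensity values are the spot and background signals per array, written by the authors with Agilent Feature Extraction 11.5.1.1, and the deposited log2 ratios of the series table match the processed signals of those arrays to within 2.7e-06. From the intensities, normexp with an offset of 50 and loess were run in limma 3.58.1 (R 4.3.3). Of 45018 spots 43379 were not controls. Spots marked as outliers were dropped and spots of 1 probe averaged, which left 41174 probes, 35340 of them with a symbol. Probes well above background in Cy5 on at least 4 arrays were kept, 34655 for 19355 genes. Group means over all 17 arrays were fitted with lmFit and eBayes, with Benjamini-Hochberg adjustment over all probes, and a call needs an adjusted p of at most 0.05 on the gene's brightest probe. The fit was tested on simulated data. Saturated spots were kept. Pearson correlations of log2 ratios between arrays ranged from -0.069 to 0.874.

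Values for every mouse are given for the immunoproteasome genes, the catalytic subunits they replace and, in each other class, the 2 genes with the smallest p against chow, plus Psma5, which was chosen after its values were seen. Of each other list the 2 called genes with the largest difference are named, with exceptions such as Tap1 for its place beside Psmb9. The symbol rule uses no measured values, but the rule and the lists were set with earlier results of these data known. Shared replicate numbers did not mark shared litters or days in the labels, so the fit has no replicate block. The correlation of same-numbered mice's deviations from their group means ranged from -0.129 to 0.486 over 24 pairs. Of these pairs 16 were above 0.1, beside 19 of 84 pairs with other numbers, and the medians were 0.182 and -0.049. Same-numbered mice were thus somewhat more alike. Many of them also shared a slide, as all mice numbered 1 did, so a likeness by number cannot be told apart from one by slide. Counts with a replicate block are given below. Alternatives were the authors' table, no background subtraction, other scalings, other filters, the mean of all probes, slide or replicate blocks, the methods' unpaired test, a 2-fold rule and leaving out each mouse. Promoters came from a RefSeq table on GRCm38.p6, which held 37 of the 44 genes. No sequence of the proteins was used here.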

Additional observations from a re-analysis of the deposited data

Results flagged for a closer look

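In 11 of the 173 combinations of a proteasome gene and a group (6.36%), 1 mouse stood apart from the rest of its group by Dixon's ratio, the gap to the nearest mouse over the group's whole range, where chance gives about 1 in 20. The 11 fall on 8 genes. Psma2 stood apart in HFD for mouse 2 (0.949) and in HFD+1B for mouse 5 (0.87). Chow mouse 1 stood apart for Psmb9 (0.935), Psmd5 (0.87) and Psme2 (0.894), and chow mouse 3 for Psmc5 (0.928) and Psmd4 (0.881). HFD+1B mouse 1 stood apart for Psmd4 (0.727) and Psmf1 (0.716), and HFD+1B mouse 4 for Psmb2 (0.811). In 1B, mouse 1 stood apart for Psme2 (0.875). Of the calls in these genes, that of Psmb9 in HFD was kept without chow mouse 1, and that of Psme2 in HFD+1B against chow was lost without it. The Psmb2 call for HFD+1B against HFD was lost without HFD+1B mouse 4, and the Psmc5 call for HFD+1B against HFD was kept without chow mouse 3.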

How the results depend on the processing

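Over the alternatives, 19 calls gave 550 values, of which 391 kept their call, 157 kept the direction without passing and 2 turned. Those 2 were Psmd14 in HFD against chow, -0.60 with the liver channel alone and -0.26 with the mean of all probes. The authors' table gave 2, 2, 5 and 1 called genes in HFD, HFD+1B against chow, HFD+1B against HFD and HFD+1B against 1B, in place of 4, 4, 9 and 2. In the same order median centring gave 1, 1, 2 and 1, the liver channel alone 0, 1, 0 and 0, the 2-fold rule 0, 1, 0 and 0, and the methods' unpaired test 12, 13, 15 and 5 without adjustment, with 6 in 1B against chow. After adjustment that test gave 0 in HFD and 1 in HFD+1B against HFD. For HFD+1B against 1B, no background subtraction and the filter on all arrays each gave 1. With each mouse left out the counts ranged from 2 to 7 in HFD, 2 to 5 in HFD+1B against chow, 2 to 10 in HFD+1B against HFD, 1 to 3 in HFD+1B against 1B, 0 to 2 in the interaction (2 without HFD+1B mouse 5) and 0 to 0 in 1B. The replicate block gave 3 calls, all lower, in the interaction in place of 0, and 6, 3, 12 and 2 in the comparisons above. Same-numbered mice, many of which shared a slide, had a median correlation of deviations of 0.182, against -0.049 between other numbers. Scaling between arrays after loess, chosen after seeing the data, kept 16 of 19 calls, and the slide block 16. Psmb9 minus Psmb6 in 1B moved to -0.082 in the authors' table, 0.10 with median centring and 0.0057 with scaling, and ranged from -0.088 to 0.11 with single mice left out. It was -0.088 without chow mouse 1. Psmb10 minus Psmb7 moved to -0.33 in HFD and -0.52 in HFD+1B with the liver channel alone, and Psmb9 minus Psmb6 in HFD+1B to 0.15 from 0.46. The cause of these moves was not tested. Psma8 and Psmb11 were near the dim end, so small differences in them could not be measured.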

Other observations

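For the 20 proteasome genes with more than 1 tested probe, 27 further probes were not used above. In HFD+1B against chow 19 of the 27 had the direction of the brightest probe, in HFD against chow 17, and in 1B against chow 13. Among the 9 of them with a mean log2 liver signal of at least 9, the numbers were 8, 6 and 5. A further probe of Psme2 fell by 0.42 (SE 0.126, limma adjusted p = 0.0294) in HFD+1B against chow, as the brightest one did, and a further probe of Psmc4 rose by 0.48 (SE 0.131, limma adjusted p = 0.0282) in HFD against chow, where the brightest just missed the threshold. A further probe of Psmb8 fell by 0.50 (SE 0.168, limma adjusted p = 0.0491) in HFD+1B against HFD. In that comparison further probes of Psmc6 and Psmd11 fell by 0.57 (SE 0.144, adjusted p = 0.0113) and 0.43 (SE 0.12, adjusted p = 0.0204) by limma. Their brightest probes gave -0.061 and -0.046. For Psmd2 a further probe rose by 0.31 (SE 0.0912, limma adjusted p = 0.0361) in HFD against chow, where the brightest gave 0.53 and did not pass. A dim probe of Psmc2 (mean log2 liver signal 6.44) gave -0.43 (SE 0.113, limma adjusted p = 0.0221) in HFD against chow, opposite in sign to the 0.30 of the brightest probe.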
